A study of Rattus norvegicus with 8 samples.

Results

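Interleukin ligands and their receptors were examined in rat sciatic nerve allografts through every gene whose symbol begins with Il and a number and that had at least 1 read in any library. Of 22798 genes with a read, 77 met this rule, and the symbols Il7r and Il36g were listed at 0 in all libraries. By function, the 77 genes were 35 ligands, 35 receptor chains, 6 inhibitors or decoys (Il1rn, Il36rn, Il18bp, Il1r2, Il13ra2 and Il22ra2) and 1 secreted enzyme that shares the naming (Il4i1). A few cytokines and receptors that belong to the same signalling systems but carry other names, such as Ebi3 and Csf2rb, were kept in separate lists.

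RNA-seq was run on the coding transcripts of 3 PEG-fused peripheral nerve allografts (PEG-fused PNAs, group PEG), 3 negative control PNAs (group NC) and 2 unoperated sciatic nerves (group Unop), each from 1 animal. All animals were female outbred Sprague Dawley rats of 3 to 6 months, and the allografts were neither matched to the host nor given with immunosuppression. A segment of donor nerve was sutured into the gap of an ablated sciatic nerve. PEG animals received polyethylene glycol, a membrane fusogen that rejoins cut axons, within a sequence of salines and methylene blue, and NC animals received the other solutions without polyethylene glycol. Unop nerves had no surgery and no treatment. Grafts were excised at 14 days PO, and each library is a whole piece of tissue that holds donor cells together with host cells. In such bulk tissue, fewer cells of a type and less RNA per cell cannot be told apart.

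Interleukins are secreted proteins that carry signals between leukocytes and between leukocytes and tissue cells. Most bind receptors made of a private chain and a chain shared within a family, such as the common gamma chain (Il2rg), gp130 (Il6st) or the IL-1 receptor accessory protein (Il1rap), and they signal through Janus kinases and STAT factors or, for the IL-1 and IL-17 families, through adaptors that lead to NF-kB. Several are held in check by soluble antagonists or decoy receptors. In a rejected graft, IL-2 and IL-12 are classically tied to T cell expansion and Th1 differentiation, while in injured nerve IL-1 beta, IL-6 and their relatives are produced early by Schwann cells and macrophages.

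The libraries held 32472925 to 39959620 reads on genes. Values are normalized read counts, and every comparison was made with limma on log2(normalized read count + 1), with adjusted p from the Benjamini-Hochberg method over 16478 tested genes and a call at an adjusted p under 0.05. Genes entered the test with at least 10 normalized read counts in at least 2 libraries, which kept 59 of the 77 members. Of these 59, 3 (Il2, Il10 and Il17a) reached 10 counts in NC PNAs only and 1 (Il25) in Unop nerves only, so a difference was built into their selection. Il22ra2 and Il23r reached 10 in every NC PNA and elsewhere only in PEG 3. Il31ra reached 10 in both Unop nerves and elsewhere only in NC 1. These genes thus also passed only because of 1 group. Il1a, Il6, Il12b, Il27 and Il36b reached 10 counts in allografts only, so being above Unop nerves was built into their selection. Read counts differ with transcript length, so levels are compared between groups and not between genes. The summed normalized read counts of 4 Schwann cell markers (Sox10, S100b, Erbb3 and Ngfr) were 167095 to 179535 in Unop nerves, 43745 to 49294 in PEG-fused PNAs and 17430.2 to 22273 in NC PNAs. Nerve markers were thus present in all 3 groups, and all 4 were higher in PEG-fused than in NC PNAs. The Unop sum was mostly S100b (mean 160400). Against Unop nerves, S100b and Sox10 were lower in PEG-fused PNAs, Ngfr was higher (4.28) and Erbb3 was not called. In NC PNAs, S100b, Sox10 and Erbb3 were lower and Ngfr was higher (2.82). The sum of 10 T cell markers was 2204 to 6205 in PEG-fused PNAs, 24826 to 47441 in NC PNAs and 283 to 528 in Unop nerves, and all 10 were lower in PEG-fused than in NC PNAs. Of 9 macrophage markers, 6 were lower in PEG-fused PNAs and none was higher, with sums of 63252 to 71946 against 83644 to 96295, and all 5 tested B cell markers were lower. Fibroblast marker sums were higher in PEG-fused PNAs, at 254497 to 374493 against 144613 to 209137 in NC PNAs, and 3 of 5 markers were called higher. Skeletal muscle marker sums varied most among NC PNAs, with 586971 in NC 1, 9527 in NC 2 and 216012 in NC 3. They were 2085 to 13822 in PEG-fused PNAs and 4680 to 29000 in Unop nerves. The part of these cell types in the differences described here was not tested.

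Most interleukin genes that differed between the 2 kinds of allograft were lower in PEG-fused PNAs, both among receptor chains and among ligands. Of 59 tested members, 29 were lower in PEG-fused than in NC PNAs, 5 were higher and 25 were not called, where 13.9% of all tested genes were lower and 15% were higher. The lower members were 17 of 31 receptor chains, 9 of 22 ligands, 2 of 5 inhibitors or decoys, and Il4i1. The 9 ligands include Il2, Il10 and Il17a, which entered the test through NC PNAs only, so these counts hold that selection. The higher members were the receptors Il1rl1, Il17rb, Il17re and Il11ra1 and the ligand Il25, which entered through Unop nerves only. With a log2 fold change past 1 also required, 24 members were lower and 3 were higher, against 7.14% and 4.41% of all tested genes. The median log2 fold change of the tested members was -0.95 (ligands -0.92, receptors -0.81) beside 0.0017 for all tested genes. Every PEG library lay below every NC library for 33 members, and above for 8, where 23.3% and 25.6% of all tested genes did so. The 33 include Il2, Il10, Il17a and Il22ra2, which passed the filter because of NC PNAs, and the 8 include Il25. Without NC 1, the library with the highest sum of muscle markers, 33 members were lower and 3 were higher. That fit still held NC 3, with a muscle marker sum of 216012. The count of higher members depended on single libraries and fell to 1 without PEG 3 and to 2 without PEG 1 or without PEG 2.

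**Figure D1:**
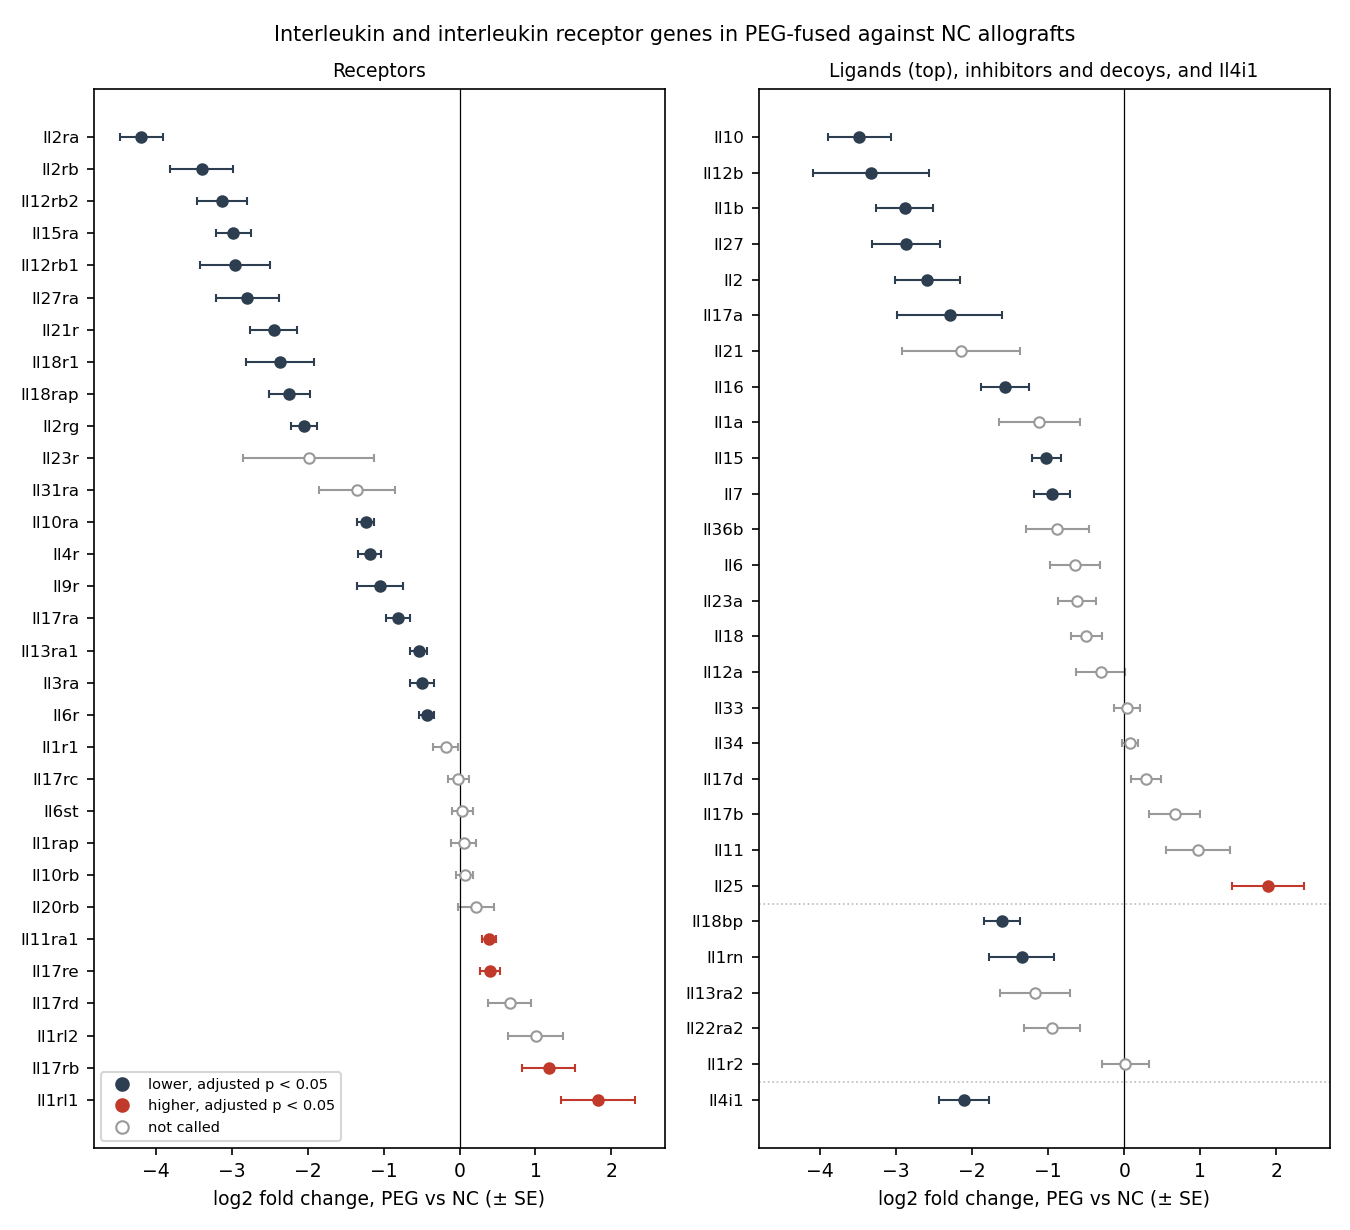
Log2 fold change of PEG-fused against NC PNAs (x axis, with its standard error from limma) for the 59 tested members, receptors on the left and ligands, inhibitors or decoys and Il4i1 on the right, separated by dotted lines. Filled dark points mark 29 lower and filled red points 5 higher members, and open points were not called; Il2ra at -4.19 and Il25 at 1.89 are the ends of the range.

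By family, 11 of 13 tested genes of the gamma chain and IL-13 group, Il2 among them, were lower in PEG-fused PNAs and none was higher. Of all tested genes, 13.9% were lower and 15% were higher. In the IL-12 group 3 of 6 were lower, and in the IL-1 group 5 of 14 were lower and 1 was higher. In the IL-6 and gp130 group, where Il27 and Il27ra are counted, 3 of 8 were lower (Il6r, Il27 and Il27ra) and 1 was higher. The IL-17 group was mixed, with 2 lower (Il17a among them) and 3 higher (Il25 among them) of 9. Il2, Il17a and Il25 had each passed the filter through a single group. Against unoperated nerve, 21 of the 29 lower members exceeded the Unop level in PEG-fused PNAs as well, so that PEG-fused PNAs lay between the other groups. That sequence was called for 6.58% of all tested genes. The 21 include Il2, Il10, Il12b and Il27, which did not reach the filter level in any Unop nerve.

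Several receptor genes stand next to each other in the rat genome, in the gene order of RefSeq (assembly GRCr8), and their values did not always move together. Il15ra and Il2ra are direct neighbours and both were lower in PEG-fused PNAs, as were the neighbours Il4r and Il21r. On chromosome 9 the IL-1 receptor genes run in the sequence Il1r2, Il1r1, Il1rl2, Il1rl1, Il18r1 and Il18rap. Within this run Il1rl1 was higher in PEG-fused PNAs and the next 2 genes, Il18r1 and Il18rap, were lower. The 250 bases before the annotated starts of 3 of these genes and of Il12rb2 are printed because they stand before receptor genes with large or opposite differences. They are from RefSeq in build GRCr8, 5′ to 3′ on the strand of the gene, and capitals mark the motifs found.
Il15ra (chr17:71741654-71741903, minus strand): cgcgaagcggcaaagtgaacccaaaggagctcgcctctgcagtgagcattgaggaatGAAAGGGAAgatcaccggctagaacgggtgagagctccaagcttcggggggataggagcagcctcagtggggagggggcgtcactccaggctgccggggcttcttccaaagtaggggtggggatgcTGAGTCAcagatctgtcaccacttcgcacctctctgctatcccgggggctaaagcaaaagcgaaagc
Il1rl1 (chr9:50203388-50203637, plus strand): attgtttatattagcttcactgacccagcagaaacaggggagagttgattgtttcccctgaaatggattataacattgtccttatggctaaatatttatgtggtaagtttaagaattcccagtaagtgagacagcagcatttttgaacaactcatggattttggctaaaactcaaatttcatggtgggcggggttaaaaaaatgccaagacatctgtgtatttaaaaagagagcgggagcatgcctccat
Il18r1 (chr9:50223241-50223490, plus strand): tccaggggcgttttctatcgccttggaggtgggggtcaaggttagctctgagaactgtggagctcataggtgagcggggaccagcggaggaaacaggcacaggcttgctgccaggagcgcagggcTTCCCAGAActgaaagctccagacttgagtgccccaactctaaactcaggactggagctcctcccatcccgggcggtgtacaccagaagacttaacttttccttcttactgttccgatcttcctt
Il12rb2 (chr4:97844938-97845187, minus strand): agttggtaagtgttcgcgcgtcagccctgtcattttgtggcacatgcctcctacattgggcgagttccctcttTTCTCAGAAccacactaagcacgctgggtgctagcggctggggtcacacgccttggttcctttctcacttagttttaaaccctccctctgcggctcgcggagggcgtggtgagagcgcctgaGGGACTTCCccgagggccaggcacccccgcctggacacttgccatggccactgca

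Searches for 4 motifs were run on both strands of these 250 bases. The motifs were a STAT site (GAS, TTCNNNGAA), an AP-1 site (TGANTCA), an NF-kB-like site (GGGNNTTCC) and the core of an interferon-stimulated response element (GAAANNGAA). The printed stretch of Il18r1 held the GAS letters, that of Il12rb2 (1 of its 2 annotated starts) held GAS and NF-kB-like letters, that of Il15ra held the AP-1 letters and the response element, and that of Il1rl1 held none of the 4. No 2 matches overlapped in the printed stretches. Of the 77 members, 60 had at least 1 annotated start, and the members lower in PEG-fused PNAs had 28 starts. The GAS letters stood before 2 of these 28 (7.14%) and before 7.67% of all 33469 starts, and the AP-1 letters before 3 of 28 (10.7%) and 6.34% of all. The NF-kB-like letters stood before 5 of 28 (17.9%, both starts of Il4i1 among them) and 5.09% of all, and the response element before 4 of 28 (14.3%) and 8.12% of all. With 1 more T in the NF-kB-like letters or 1 more A at the end of the response element, each stood before 1 of 28 (3.57%), against 1.30% and 3.41% of all. A match of letters is a description of the sequence and shows no binding.

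Receptor chains for IL-2 and IL-15 were among the members with the largest differences between PEG-fused and NC PNAs. Il2ra, the alpha chain that gives the IL-2 receptor its high affinity and that activated T cells display, had normalized read counts of 175, 72.0 and 100.4 in PEG-fused PNAs, 2079, 2021 and 1879 in NC PNAs and 56.9 and 60.04 in Unop nerves. The groups did not overlap, NC PNAs held 17.2 times the mean of PEG-fused PNAs, and the log2 fold change was -4.19 ± 0.28 (SE, adjusted p = 0.000343). Il2rb, the signalling chain shared by IL-2 and IL-15, stood at 938, 289 and 679 in PEG-fused PNAs, 4842, 8566 and 5188 in NC PNAs and 32.2 and 23.8 in Unop nerves, with a log2 fold change of -3.39 ± 0.41 (SE, adjusted p = 0.00124). PEG 2 was the lowest library of its group for both genes, and it also had the lowest T cell marker sum of that group, 2204 against 5766 and 6205. The same library was lowest in its group for other members, such as Il1b and Il17ra.

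Il2rg, the common gamma chain, was lower in PEG-fused PNAs by less. Counts of Il2rg were 2584, 2053 and 2272 in PEG-fused PNAs, 8031, 12056 and 8798 in NC PNAs and 511 and 408 in Unop nerves, and the log2 fold change was -2.05 ± 0.17 (SE, adjusted p = 0.000439). Every PEG-fused PNA stood above both Unop nerves, with a log2 fold change of 2.33 against Unop (adjusted p = 2.06e-05). Il2ra differed much less from unoperated nerve than Il2rg, at 0.88 (adjusted p = 0.0408), although a test of that difference between genes was not made. The ligand Il2 itself had only 4, 3 and 2 reads in PEG-fused PNAs and 27, 26 and 15 in NC PNAs, and 0 in both Unop nerves.

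Il15ra, which presents IL-15 to neighbouring cells, had narrow ranges within each group. The normalized read counts of Il15ra were 129, 82.3 and 84.4 in PEG-fused PNAs, 721, 872 and 713 in NC PNAs and 36.5 and 26.3 in Unop nerves, and the log2 fold change between the allografts was -2.98 ± 0.23 (SE, adjusted p = 0.000380). The ligand Il15 showed a smaller difference, with values of 171, 203 and 143 in PEG-fused PNAs, 439, 313 and 307 in NC PNAs and 223 and 233 in Unop nerves and a log2 fold change of -1.02 ± 0.19 (SE, adjusted p = 0.00619). NC PNAs were also above Unop nerves for Il15 (0.61, adjusted p = 0.0347), whereas the PEG-fused PNAs, all lower than both Unop nerves, were not called against them (-0.42, adjusted p = 0.130).

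Il21r and Il4r, the adjacent genes for the IL-21 and IL-4 receptors, were both lower in PEG-fused PNAs and both above unoperated nerve. Il21r had normalized read counts of 1032, 567 and 788 in PEG-fused PNAs, 3164, 6052 and 3905 in NC PNAs and 69.8 and 40.0 in Unop nerves, with a log2 fold change between the allografts of -2.45 ± 0.31 (SE, adjusted p = 0.00145). Il4r, expressed by leukocytes and by many tissue cells, stood at 3547, 2940.2 and 3501 in PEG-fused PNAs, 6908, 8183 and 7589 in NC PNAs and 1784 and 1207 in Unop nerves, with a log2 fold change of -1.18 ± 0.15 (SE, adjusted p = 0.00145). The groups did not overlap for either gene. The ligand Il21 was not called (-2.15, adjusted p = 0.0699), and its NC libraries were split, with 11.6 in NC 1 and 120.5 and 93.6 in NC 2 and NC 3. Reads of Il4 and Il13 were between 1 and 4 per NC library and 0 elsewhere.

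Il13ra1, the chain that pairs with Il4r in non-lymphoid cells, was lower in PEG-fused PNAs by a smaller amount, -0.54 ± 0.11 (SE, adjusted p = 0.00992), with values of 621, 525 and 583 in PEG-fused PNAs, 841, 764 and 903 in NC PNAs and 278 and 254 in Unop nerves. The decoy Il13ra2 ranged from 53.3 to 174 in PEG-fused PNAs and from 123 to 289 in NC PNAs, and was not called (-1.17, adjusted p = 0.0898). Il7, a survival factor for lymphocytes made by stromal cells, is 1 of 2 members called lower in PEG-fused PNAs than in both other groups, the other being Il16. That pattern was called for 2.63% of all tested genes. Every PEG library of Il15, Il23a and Il31ra also lay below every NC and Unop library, without both calls. Counts of Il7 were 40.8, 45.8 and 52.5 in PEG-fused PNAs, 75.1, 91.4 and 107 in NC PNAs and 94.4 and 66.3 in Unop nerves, and the log2 fold change was -0.95 ± 0.24 (SE, adjusted p = 0.0188) against NC and -0.77 ± 0.26 (SE, adjusted p = 0.0348) against Unop. The call against NC was lost without PEG 1, with -0.87 (adjusted p = 0.0635), without PEG 2, with -0.95 (adjusted p = 0.0602), and without NC 3, with -0.83 (adjusted p = 0.0628). The call against Unop was lost without PEG 1, with -0.68 (adjusted p = 0.0976), without PEG 2, with -0.76 (adjusted p = 0.0728), and without Unop 1, with -0.51 (adjusted p = 0.204). Il9r was lower at -1.05 ± 0.30 (SE, adjusted p = 0.0342), a call lost at -1.10 (adjusted p = 0.0711) without PEG 1, at -0.81 (adjusted p = 0.113) without PEG 2, at -1.04 (adjusted p = 0.0699) without NC 1 and at -0.83 (adjusted p = 0.0957) without NC 2.

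**Figure D2:**
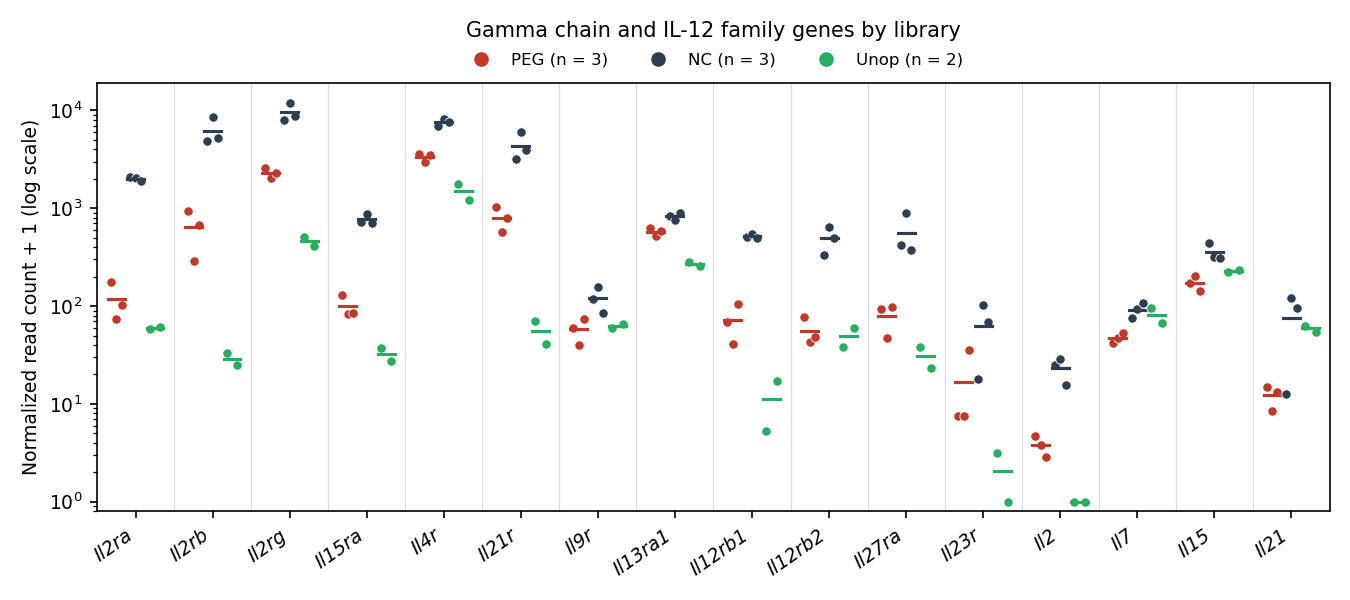
Normalized read count plus 1 (y axis, log scale) of 16 gamma chain and IL-12 family genes in each library; points are libraries and short lines are group means. The 3 NC PNAs (dark) sit between 1879 and 2079 for Il2ra, above all PEG-fused PNAs (red, 72.0 to 175), while for Il7 the PEG-fused PNAs lie below both other groups.

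Both chains of the IL-12 receptor and the receptor for IL-27 were lower in PEG-fused PNAs. Il12rb1, which is shared by the IL-12 and IL-23 receptors, had normalized read counts of 67.7, 40.2 and 103 in PEG-fused PNAs, 502, 546 and 499.7 in NC PNAs and 4.29 and 16.3 in Unop nerves, and the log2 fold change was -2.96 ± 0.46 (SE, adjusted p = 0.00303). Il12rb2, the signalling chain that marks Th1 cells, stood at 76.0, 42.1 and 46.9 in PEG-fused PNAs, 329.7, 647 and 497 in NC PNAs and 37.6 and 58.8 in Unop nerves, with a log2 fold change of -3.13 ± 0.33 (SE, adjusted p = 0.000787). PEG-fused PNAs overlapped Unop nerves for Il12rb2 and were not called against them (0.17, adjusted p = 0.706, 95% interval -0.67 to 1.01), unlike Il12rb1 (2.80, adjusted p = 0.00195). Its neighbour Il23r was not called between the allografts (-1.99, adjusted p = 0.118), with 1 PEG-fused PNA at 34.7 and 1 NC PNA at 17.0.

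Il27ra and the ligand Il27, a cytokine of antigen-presenting cells, fell on the same side. Il27ra had normalized read counts of 92.7, 45.8 and 96.6 in PEG-fused PNAs, 424, 895 and 372 in NC PNAs and 37.6 and 22.5 in Unop nerves, and the log2 fold change was -2.79 ± 0.42 (SE, adjusted p = 0.00247). Il27 had 11, 13 and 5 reads in PEG-fused PNAs, 73, 54 and 85 in NC PNAs and 1 and 0 in Unop nerves, with a log2 fold change of -2.87 ± 0.45 (SE, adjusted p = 0.00293) between the allografts. The partner subunit of IL-27, Ebi3, was lower too, at -1.20 ± 0.31 (SE, adjusted p = 0.0216).

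Of the subunits of IL-12 and IL-23, 1 was called between the allografts. Il12b, the subunit common to both cytokines, was lower in PEG-fused PNAs (-3.33 ± 0.76 (SE, adjusted p = 0.0139)), and its values in the 3 PEG-fused PNAs were spread, at 26.9, 11.2 and 1.88. Il12a, the private subunit of IL-12, was not called (-0.31, 95% interval -1.05 to 0.43), and neither was Il23a, the private subunit of IL-23 (-0.62, adjusted p = 0.0993). Il23a was lower in PEG-fused PNAs than in unoperated nerve, with values of 19.5, 20.6 and 26.3 in PEG-fused PNAs, 35.7, 37.7 and 29.9 in NC PNAs and 50.4 and 40.0 in Unop nerves and a log2 fold change of -1.003 ± 0.28 (SE, adjusted p = 0.0149).

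The IL-1 family divided between ligand, antagonist and receptors. Il1b, the secreted inflammatory ligand, had normalized read counts of 651, 219 and 304 in PEG-fused PNAs, 2071, 3559.7 and 2405 in NC PNAs and 83.7 and 85.1 in Unop nerves, and the log2 fold change between the allografts was -2.89 ± 0.37 (SE, adjusted p = 0.00148). The related ligand Il1a, which is active on release from damaged cells, had 134, 110.3 and 91.0 in PEG-fused PNAs, 248, 219 and 256 in NC PNAs and 4.29 and 0 in Unop nerves. It passed the filter through allografts only. All 3 PEG-fused PNAs lay below all 3 NC PNAs for Il1a, but the difference was not called (-1.12 ± 0.53 (SE, adjusted p = 0.150), 95% interval -2.33 to 0.10), and both kinds of allograft were far above the 4 and 0 reads of the Unop nerves.

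Il1rn, the secreted antagonist of the IL-1 receptor, was lower in PEG-fused PNAs, though with spread in both groups. Its normalized read counts were 1924, 1835 and 3923 in PEG-fused PNAs, 3305, 8265 and 8396 in NC PNAs and 115 and 71.3 in Unop nerves, so that PEG 3 lay above NC 1. The log2 fold change was -1.35 ± 0.42 (SE, adjusted p = 0.0449), and the call was lost without PEG 1, PEG 2, NC 2, NC 3, Unop 1 or Unop 2, where it was -1.19 (adjusted p = 0.125), -1.16 (adjusted p = 0.146), -1.13 (adjusted p = 0.119), -1.12 (adjusted p = 0.130), -1.35 (adjusted p = 0.0605) and -1.35 (adjusted p = 0.0612). The decoy receptor Il1r2 stood at 56.5, 43.9 and 61.0 in PEG-fused PNAs, 58.1, 58.1 and 43.4 in NC PNAs and 31.1 and 15.01 in Unop nerves, with a difference between the allografts of 0.02 and a 95% interval of -0.70 to 0.74. The signalling receptor Il1r1 ranged from 1528 to 1762 in PEG-fused PNAs and from 1415 to 2199 in NC PNAs, and was not called (-0.18, 95% interval -0.56 to 0.19), except without NC 1, where it was -0.39 (adjusted p = 0.0242). The accessory chain Il1rap differed by 0.05 (95% interval -0.32 to 0.43). Both receptor chains were above unoperated nerve in both kinds of allograft, by 1.12 and 1.31 for Il1r1 and by 0.81 and 0.76 for Il1rap. Genes that process IL-1 beta were lower as well. All 7 on a list of inflammasome and cleavage genes were called lower in PEG-fused PNAs, where 13.9% of all tested genes were. Among them were Casp1, the protease that matures IL-1 beta and IL-18 (-1.60 ± 0.20 (SE, adjusted p = 0.00137)), Nlrp3 (-1.11 ± 0.16 (SE, adjusted p = 0.00233)) and Aim2 (-1.88 ± 0.29 (SE, adjusted p = 0.00297)).

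**Figure D3:**
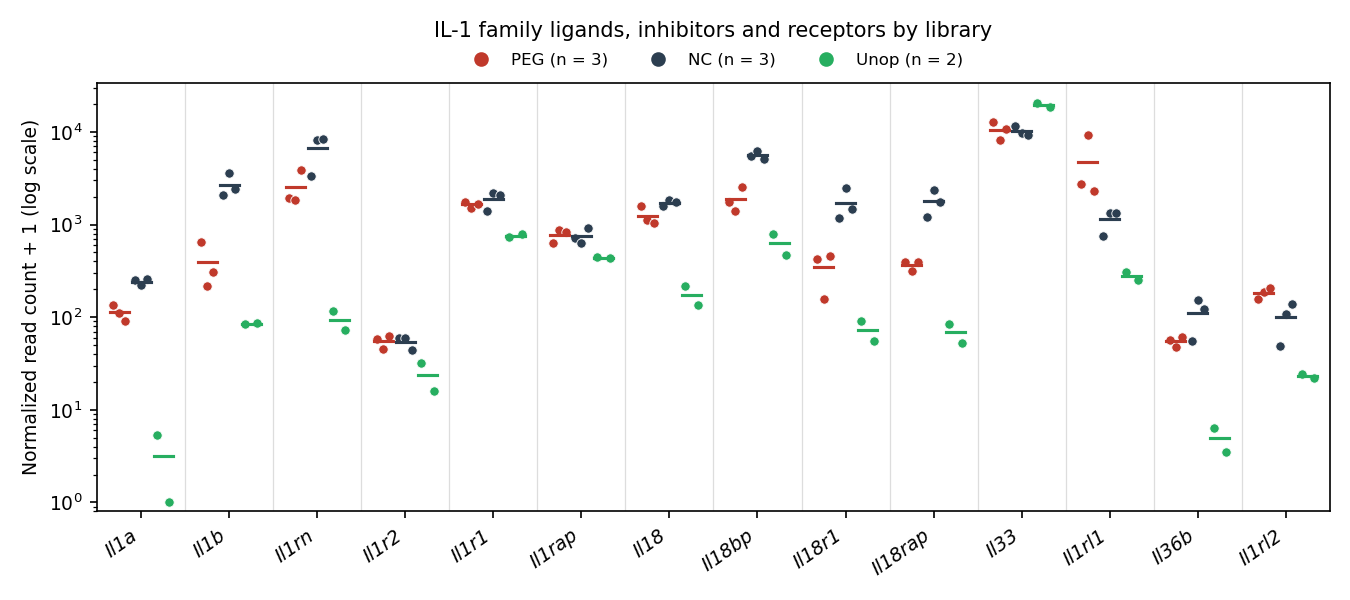
Normalized read count plus 1 (y axis, log scale) of 14 IL-1 family genes in each library; points are libraries and short lines are group means. Il1b and Il18bp separate the 2 kinds of allograft, Il1rn overlaps at 3923 (PEG 3) and 3305 (NC 1), and Il1rl1 is highest in PEG-fused PNAs with PEG 2 at 9201.

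Ratios within a library set a ligand against its inhibitor without regard to library size. For Il1b to Il1rn, the log2 ratio was -1.56, -3.06 and -3.69 in PEG-fused PNAs, -0.67, -1.22 and -1.80 in NC PNAs and -0.45 and 0.25 in Unop nerves. The groups of allografts overlapped, and the mean ratio was 1.54 lower in PEG-fused PNAs on the log2 scale (-1.54, two-sided exact permutation test, p = 0.2). For Il1b to the decoy Il1r2, the log2 ratio was 3.50, 2.29 and 2.30 in PEG-fused PNAs and 5.13, 5.91 and 5.76 in NC PNAs, without overlap (-2.90, exact permutation test, p = 0.1, the smallest p that 3 against 3 can give). The ratio of Il1a to Il1rn differed by 0.23 (exact permutation test, p = 1.0). With 4 ratios tested, the adjusted p-values cannot go under the threshold of 0.05.

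**Figure D4:**
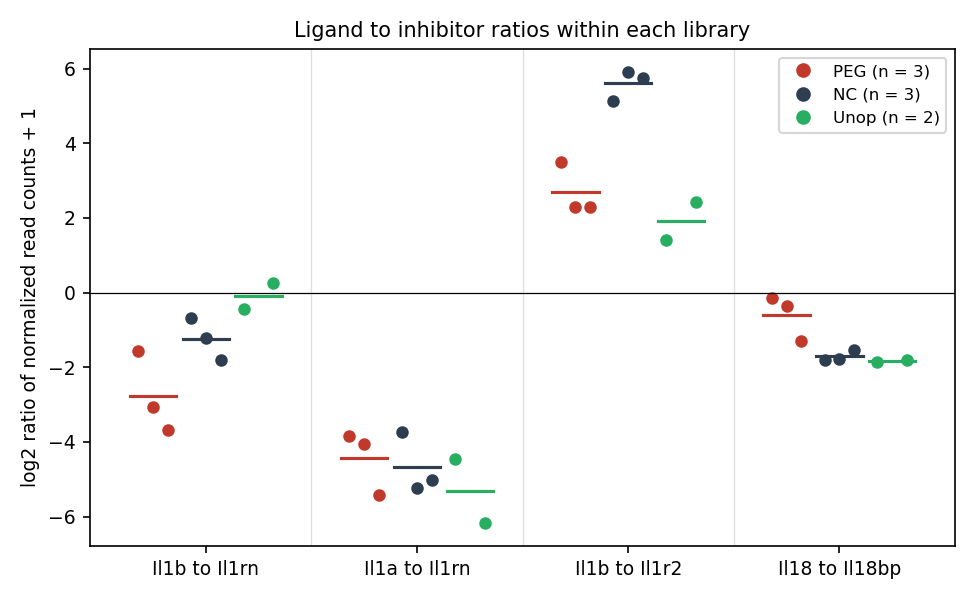
Log2 ratio of the normalized read counts plus 1 of 4 ligands to their inhibitors (y axis) in each library, with short lines for group means. Il1b to Il1r2 is higher in all 3 NC PNAs than in all 3 PEG-fused PNAs, and Il18 to Il18bp is higher in all 3 PEG-fused PNAs than in all NC PNAs and Unop nerves.

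For IL-18, the binding protein and the receptor were lower in PEG-fused PNAs and the ligand was not called. Il18 had normalized read counts of 1578, 1107 and 1030.0 in PEG-fused PNAs, 1577, 1828 and 1759.5 in NC PNAs and 215 and 134 in Unop nerves, with a difference between the allografts of -0.50 (adjusted p = 0.109, 95% interval -0.98 to -0.02), and was called only without PEG 1, at -0.69 (adjusted p = 0.0479). Il18bp, the secreted protein that neutralises IL-18, stood at 1744, 1414 and 2516 in PEG-fused PNAs, 5546, 6238 and 5079 in NC PNAs and 786 and 468 in Unop nerves, with a log2 fold change of -1.61 ± 0.24 (SE, adjusted p = 0.00256). As a percentage of the Il18bp count, which also depends on the lengths of both transcripts, Il18 was at 90.5%, 78.3% and 40.9% in PEG-fused PNAs, 28.4%, 29.3% and 34.6% in NC PNAs and 27.3% and 28.6% in Unop nerves. The log2 ratio was higher in 3 of 3 PEG-fused PNAs than in any NC PNA, -0.59 ± 0.61 against -1.70 ± 0.15 (SD, n = 3; exact permutation test, p = 0.1, the smallest possible).

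Both chains of the IL-18 receptor were lower in PEG-fused PNAs. Il18r1, the binding chain, had normalized read counts of 428, 156 and 459 in PEG-fused PNAs, 1179, 2459 and 1457 in NC PNAs and 90.1 and 55.0 in Unop nerves, and the log2 fold change was -2.36 ± 0.45 (SE, adjusted p = 0.00632). Il18rap, the accessory chain, stood at 389, 314 and 396 in PEG-fused PNAs, 1218, 2388 and 1766 in NC PNAs and 83.7 and 51.3 in Unop nerves, with a log2 fold change of -2.24 ± 0.27 (SE, adjusted p = 0.00119). PEG 2 was again the lowest PEG-fused PNA for both chains, as it was for the T cell marker sum. It was also the lowest of its group for Il1b, Il1rn, Il18bp, Il4r, Il13ra1, Il17ra and Il10ra, but not for Il15 or Il7. The part of T cells in these values was not tested.

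Il1rl1, which encodes the receptor for IL-33 called ST2, was the only member called higher in PEG-fused PNAs than in both other groups, a pattern called for 5.03% of all tested genes. Every PEG library of Il1rl2 and of Il11 also lay above every NC and Unop library, without a call against NC. Normalized read counts of Il1rl1 were 2744, 9201 and 2306 in PEG-fused PNAs, 744, 1323 and 1343 in NC PNAs and 306 and 250.1 in Unop nerves. PEG 2 held more than the sum of the other PEG-fused PNAs, and the lowest PEG-fused PNA still lay above the highest NC PNA. The log2 fold change was 1.82 ± 0.49 (SE, adjusted p = 0.0255) against NC and 3.80 ± 0.54 (SE, adjusted p = 0.000481) against Unop. The call against NC was lost without NC 1, with 1.54 (adjusted p = 0.0657), and in a robust fit, with 1.82 (adjusted p = 0.0525); without PEG 2 it was 1.20 (adjusted p = 0.0244). PEG 2 also had the highest fibroblast marker sum, 374493 against 254497 and 260579 in the other PEG-fused PNAs. Col1a1 made up most of that difference (205392 against 110974 and 95857), while Pdgfra was lowest there. Of 6 mast cell markers, 5 were higher in PEG 2 than in the other PEG-fused PNAs. They included Cma1 (243 against 84.3 and 69.4) and Cpa3 (366 against 182 and 113), while Kit was lower. None of the 6 was called between PEG-fused and NC PNAs. Against Unop nerves, where Il1rl1 was lowest, 5 of the 6 were lower in PEG-fused PNAs. The part of these cell types in the Il1rl1 value was not tested. The ligand Il33, a nuclear alarmin, was not called between the allografts, at 0.03 with a 95% interval of -0.35 to 0.42, and was lower in both than in unoperated nerve, with values of 12750.2, 8162 and 10805 in PEG-fused PNAs, 11661, 9701 and 9257 in NC PNAs and 20752 and 18787 in Unop nerves (-0.93 and -0.96, adjusted p = 0.00304 and 0.00212).

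The IL-36 receptor Il1rl2, next to Il1rl1 in the genome, had its PEG-fused PNAs above its NC PNAs without being called. Its normalized read counts were 157, 186.97 and 204 in PEG-fused PNAs, 48.3, 108.65 and 139 in NC PNAs and 23.6 and 21.3 in Unop nerves, and the difference was 1.001 ± 0.36 (SE, adjusted p = 0.0728); without NC 3 it was called at 1.31 (adjusted p = 0.0375). The ligand Il36b, which passed the filter through allografts only, was above unoperated nerve in PEG-fused PNAs (3.54 ± 0.46 (SE, adjusted p = 0.000296)) and in NC PNAs (4.42 ± 0.46 (SE, adjusted p = 6.14e-05)). Its antagonist Il36rn had at most 3 reads in any library.

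In the IL-17 family 3 of 9 tested genes were higher in PEG-fused PNAs, where 15% of all tested genes were, and 2 were lower. Il25 (also called IL-17E), a ligand of type 2 immunity, had 3, 6 and 7 reads in PEG-fused PNAs, 1, 0 and 1 in NC PNAs and 20 and 23 in Unop nerves, the group through which it passed the filter. Its receptor chain Il17rb stood at 50.1, 39.3 and 65.7 in PEG-fused PNAs, 35.7, 15.1 and 19.3 in NC PNAs and 253 and 199 in Unop nerves, and Il17re, the receptor chain for IL-17C, at 221, 223 and 226 in PEG-fused PNAs, 158, 184 and 166 in NC PNAs and 774 and 642 in Unop nerves. Il17rb and Il17re were highest in unoperated nerve and lowest in NC PNAs, and so was Il11ra1, the IL-11 receptor, at 1494, 1295 and 1461 in PEG-fused PNAs, 1071, 1026 and 1153 in NC PNAs and 3493 and 3074 in Unop nerves. This sequence was called for these 3 genes and Il25 and for 5.3% of all tested genes.

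The differences between the allografts were 1.89 ± 0.47 (SE, adjusted p = 0.0201) for Il25, 1.17 ± 0.35 (SE, adjusted p = 0.0374) for Il17rb, 0.40 ± 0.13 (SE, adjusted p = 0.04997) for Il17re and 0.39 ± 0.09 (SE, adjusted p = 0.0183) for Il11ra1. Each of these calls rested on single libraries. Il25 was lost at 1.79 (adjusted p = 0.0717) without PEG 2 and at 1.69 (adjusted p = 0.0729) without PEG 3. Il11ra1 was lost at 0.35 (adjusted p = 0.0671) without PEG 1, at 0.36 (adjusted p = 0.0679) without PEG 3 and at 0.35 (adjusted p = 0.0525) without NC 2. Il17rb was lost without any 1 library except NC 1, with adjusted p between 0.0536 (without Unop 2) and 0.121 (without PEG 3). Il17re was lost without any 1 PEG-fused or NC PNA, with adjusted p up to 0.13 (without PEG 3). The ligand Il17d fell below unoperated nerve in both kinds of allograft, with values of 95.5, 79.5 and 91.0 in PEG-fused PNAs, 65.2, 66.7 and 86.8 in NC PNAs and 346 and 265 in Unop nerves and log2 fold changes of -1.76 and -2.05 (adjusted p = 0.000223 and 6.94e-05).

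The shared receptor chain Il17ra ran the other way, with normalized read counts of 3011, 2372 and 2980.3 in PEG-fused PNAs, 3969, 5831 and 4918 in NC PNAs and 967 and 803 in Unop nerves and a log2 fold change between the allografts of -0.81 ± 0.16 (SE, adjusted p = 0.00775). Its partner Il17rc differed by -0.01 (95% interval -0.33 to 0.31). Il17a, the ligand of Th17 cells, had 3, 1 and 2 reads in PEG-fused PNAs, 4, 22 and 22 in NC PNAs and 0 in both Unop nerves. The call for Il17a (-2.30 ± 0.69 (SE, adjusted p = 0.0393)) was lost without any 1 library except NC 1, with adjusted p between 0.0534 (without Unop 1) and 0.125 (without PEG 2). Il17f had 0 to 5 reads per library.

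In the IL-10 family, the private receptor chain and the ligand were lower in PEG-fused PNAs and the shared chain was not called. Il10ra, carried by leukocytes, had normalized read counts of 1085, 1014 and 1043 in PEG-fused PNAs, 2215, 2559 and 2648 in NC PNAs and 91.2 and 111 in Unop nerves, with little spread within groups, and a log2 fold change of -1.24 ± 0.11 (SE, adjusted p = 0.000537). Il10rb, used by IL-10, IL-22 and related cytokines in many tissues, stood at 3049, 2915 and 2929.6 in PEG-fused PNAs, 2633, 3067 and 2810.0 in NC PNAs and 1013 and 759 in Unop nerves, with a difference of 0.07 and a 95% interval of -0.20 to 0.33. Il10rb was above unoperated nerve in both kinds of allograft, by 1.76 and 1.69 (adjusted p = 1.30e-05 and 1.04e-05). Il10, a cytokine that restrains inflammation, had 10, 6 and 10 reads in PEG-fused PNAs and 70, 126 and 117 in NC PNAs. Its log2 fold change was -3.48 ± 0.42 (SE, adjusted p = 0.00121). Il10 passed the filter only through the NC PNAs, where it was high. The decoy receptor for IL-22, Il22ra2, was above Unop in NC PNAs (2.10 ± 0.41 (SE, adjusted p = 0.00205)), the group that let it pass the filter. The call in PEG-fused PNAs (1.15 ± 0.41 (SE, adjusted p = 0.0393)) was lost without PEG 2, PEG 3, any 1 NC PNA or Unop 1, where it was 0.85 (adjusted p = 0.164).

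In the IL-6 family, the private receptor Il6r was modestly lower in PEG-fused PNAs and its shared partner was not called. Il6r had normalized read counts of 2009, 2016 and 2218 in PEG-fused PNAs, 2643, 3015 and 2770.5 in NC PNAs and 1049.6 and 1237 in Unop nerves and a log2 fold change of -0.43 ± 0.09 (SE, adjusted p = 0.0117). Il6st, the gp130 chain, had values of 6819, 5819 and 7129 in PEG-fused PNAs, 6707, 5304 and 7339 in NC PNAs and 7245 and 8221 in Unop nerves, with differences of 0.04 between the allografts (95% interval -0.28 to 0.35) and -0.23 for PEG-fused PNAs against Unop (95% interval -0.59 to 0.12). The ligand Il6 stood at 70.4, 49.5 and 32.8 in PEG-fused PNAs, 70.6, 78.5 and 82.0 in NC PNAs and 2.15 and 1.25 in Unop nerves. Il6 passed the filter through allografts only. It was above unoperated nerve in PEG-fused PNAs (4.22 ± 0.37 (SE, adjusted p = 3.17e-05)) and in NC PNAs (4.87 ± 0.37 (SE, adjusted p = 9.93e-06)), and the PEG-fused PNAs, all below the NC PNAs though PEG 1 and NC 1 nearly met, were not called against them (-0.65, 95% interval -1.41 to 0.11). Of its relatives, Clcf1 (0.76 ± 0.18 (SE, adjusted p = 0.0161)) and Lif (0.61 ± 0.17 (SE, adjusted p = 0.0294)) were higher in PEG-fused than in NC PNAs. Osm was lower (-0.66 ± 0.16 (SE, adjusted p = 0.0180)), and Cntf was not called (0.26, adjusted p = 0.203). Among receptor chains for these cytokines, Lifr was lower (-1.08 ± 0.18 (SE, adjusted p = 0.00424)), and Osmr (-0.32) and Cntfr (0.79) were not called. Il11 had values of 39.9, 52.4 and 42.2 in PEG-fused PNAs, 10.7, 31.2 and 31.8 in NC PNAs and 27.9 and 21.3 in Unop nerves. It was not called between the allografts (0.98, adjusted p = 0.117).

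**Figure D5:**
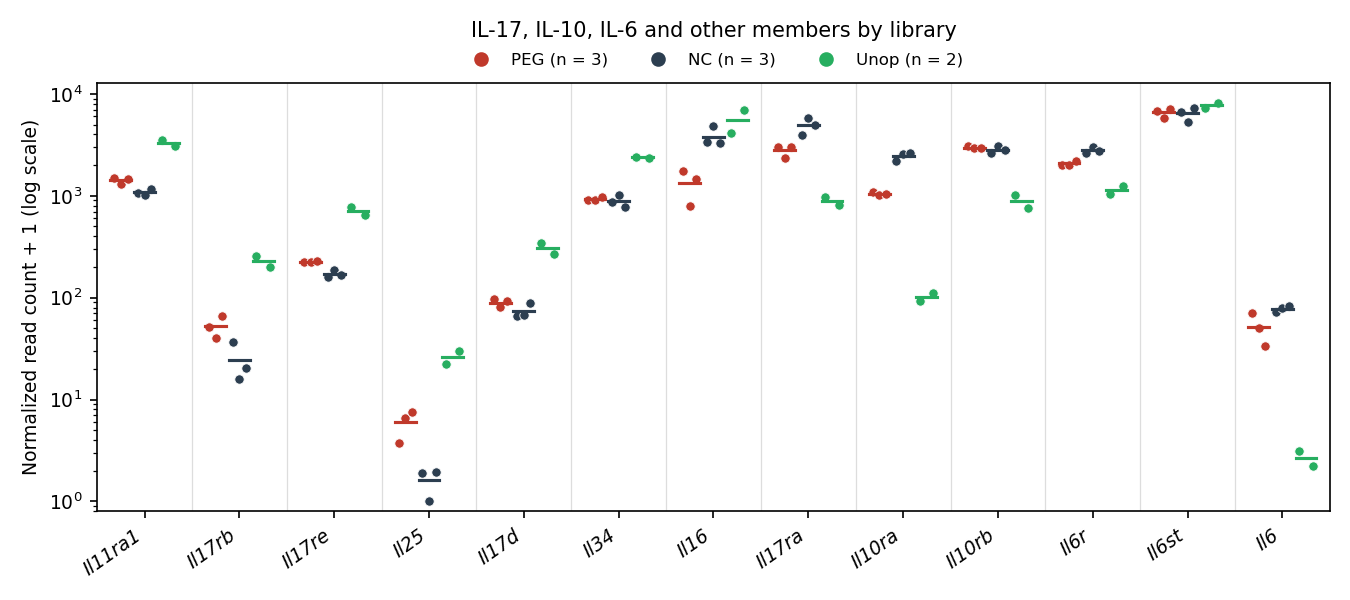
Normalized read count plus 1 (y axis, log scale) of 13 genes of the IL-17, IL-10, IL-6 and other groups in each library; points are libraries and short lines are group means. Il11ra1, Il17rb, Il17re and Il25 are highest in Unop nerves (green) and lowest in NC PNAs (dark), and Il16 is lowest in PEG-fused PNAs (red, 791 to 1754).

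Among members outside these families, Il16, a chemoattractant for CD4+ cells that lymphocytes and other cells keep as a precursor, was lower in PEG-fused PNAs than in either other group. The libraries held 1754, 791 and 1449 in PEG-fused PNAs, 3358, 4798 and 3283 in NC PNAs and 4169 and 6923 in Unop nerves. The PEG-fused PNAs overlapped neither group, and the log2 fold change was -1.57 ± 0.31 (SE, adjusted p = 0.00799) against NC and -2.09 ± 0.35 (SE, adjusted p = 0.00115) against Unop. Il16 and Il7 were the 2 of 59 tested members called lower in PEG-fused PNAs than in both, as were 2.63% of all tested genes. NC PNAs were not called against Unop for Il16 (-0.52, 95% interval -1.32 to 0.29).

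Il34, an alternative ligand of the CSF-1 receptor, did not separate the allografts (0.07, 95% interval -0.17 to 0.32), and both were below unoperated nerve, with values of 898, 915 and 972 in PEG-fused PNAs, 873, 1012 and 775 in NC PNAs and 2425 and 2359 in Unop nerves (-1.37 and -1.44, adjusted p = 3.34e-05 and 1.69e-05). Il4i1, an amino acid oxidase of antigen-presenting cells, stood at 169.6, 229 and 235 in PEG-fused PNAs, 727, 1633 and 629 in NC PNAs and 129.9 and 125 in Unop nerves, with a log2 fold change between the allografts of -2.11 ± 0.33 (SE, adjusted p = 0.00302). Il3ra was lower at -0.50 ± 0.16 (SE, adjusted p = 0.0475), a call kept only without NC 1 among the libraries left out in turn. Its shared beta chain Csf2rb was lower by more, at -1.31 ± 0.18 (SE, adjusted p = 0.00197).

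Against unoperated nerve, 34 of the 59 tested members were higher in PEG-fused PNAs and 12 were lower, where 29.1% and 28.6% of all tested genes were called. In NC PNAs 41 were higher and 9 were lower, where 32.2% and 32.3% of all tested genes were called. These counts hold the selection of the filter. Il1a, Il6, Il12b, Il22ra2, Il23r, Il27 and Il36b reached 10 normalized read counts in allografts only, and Il2, Il10 and Il17a in NC PNAs only. Il25 reached 10 in Unop nerves only, and Il31ra passed because of them. Both comparisons rest on the same 2 Unop nerves, with 1 estimate of the spread per gene over the 3 groups. Of the 59 tested members, 12 were higher than Unop in both kinds of allograft and not called between them, against 15.5% of all tested genes. They were Il6, Il1a, Il18, Il36b, Il12a, Il1r1, Il1rap, Il1rl2, Il23r, Il10rb, Il1r2 and Il22ra2. Lower than Unop in both and not called between them were 4 members, Il33, Il34, Il17d and Il31ra, against 18.5% of all tested genes. Adipocyte marker sums were 52721 to 94475 in Unop nerves, 3830.2 to 9144 in PEG-fused PNAs and 3587 to 5309 in NC PNAs. Mast cell marker sums were 4737 to 8322, 1114 to 1479.9 and 1076 to 1523 in the same sequence of groups. The part of both cell types in the values against Unop was not tested. By role, 20 of 31 receptor chains and 10 of 22 ligands were higher against Unop in PEG-fused PNAs. The median log2 fold change of members was 1.12 in PEG-fused PNAs and 1.98 in NC PNAs against Unop.

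A group of 6 members was lower in PEG-fused than in NC PNAs without a call against unoperated nerve, where 4.67% of all tested genes had that pattern. They were Il12rb2, Il15, Il17a, Il3ra, Il4i1 and Il9r, and their log2 fold changes against Unop ran from -0.42 for Il15 to 1.47 for Il17a. That they were not called does not show that they equalled unoperated nerve.

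Among the other genes of interleukin signalling, 30 of 49 tested were lower in PEG-fused than in NC PNAs and 3 were higher (1 without PEG 1 or without PEG 2), where 13.9% and 15% of all tested genes were. With a log2 fold change past 1 also required, 14 were lower and 0 were higher. Of the Janus kinases and STAT factors, 9 of 10 were lower, and Stat6, the factor downstream of IL-4, was the exception (-0.29, adjusted p = 0.0677). Jak3, the kinase bound to the common gamma chain, had normalized read counts of 1239, 696 and 1152 in PEG-fused PNAs, 2412, 4606 and 3059.9 in NC PNAs and 197 and 145 in Unop nerves and a log2 fold change of -1.70 ± 0.29 (SE, adjusted p = 0.00410). Stat4, the factor downstream of IL-12, stood at 7766, 7903 and 5658 in PEG-fused PNAs, 49689.5, 35996 and 33238 in NC PNAs and 5484 and 5302 in Unop nerves (-2.47 ± 0.18 (SE, adjusted p = 0.000343)). Jak1 and Jak2 were lower by less, at -0.49 and -0.78 (adjusted p = 0.0115 and 0.00121).

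Feedback inhibitors of these kinases were divided. Socs1 was lower in PEG-fused PNAs, with normalized read counts of 159, 90.7 and 84.4 in PEG-fused PNAs, 1560.2, 1025 and 1127 in NC PNAs and 38.6 and 33.8 in Unop nerves and a log2 fold change of -3.50 ± 0.27 (SE, adjusted p = 0.000387), as were Cish, a target of IL-2 and STAT5 signalling (-1.64 ± 0.16 (SE, adjusted p = 0.000631)), and Socs3 (-0.97 ± 0.19 (SE, adjusted p = 0.00725)). Socs5 was higher, at 0.57 ± 0.09 (SE, adjusted p = 0.00300), and the other 4 genes of the SOCS list were not called. Of 9 genes listed as adaptors and regulators of the IL-1 and IL-17 receptors, 3 were lower (the adaptor Myd88, the kinase Irak2 and Sigirr, an inhibitory receptor) and none was higher, and Irak1 and Traf6 differed by 0.09 and -0.24. Of 15 cytokines and receptors that act with interleukins under other names, 8 were lower and 2 were higher.

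The remaining 18 members were under the filter and had few reads in all groups. Il24 had up to 23 reads and was highest in Unop 1, and Il5ra had 1 to 12 reads per library. Il3 was read only in NC PNAs, with 14, 3 and 6 reads, as were Il4, with 1, 2 and 2, and Il13, with 4, 2 and 1. Il1f10, Il22ra1, Il17c, Il17f, Il1rapl1, Il36rn, Il5, Il19, Il20ra, Il22, Il36a, Il9 and Il20 had at most 12 reads in any library. These genes were not tested here, and without the filter 30 members in place of 29 were called lower in PEG-fused PNAs.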

How the data were processed

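Total RNA of the allografts (3 PEG-fused, 3 NC) and of 2 Unop nerves was made into stranded poly-A libraries and sequenced. Per the labels, the authors used FastQC, TopHat2, HTSeq and DESeq2 with genome build Rnor_6.0, and the deposited signal values are read counts per gene divided by the size factor of each library. The strand setting of the counting was not given in the sources used here. Deposited fold changes and p-values of the authors' own comparisons were not used.

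Groups and replicate numbers come from the labels. Division by a constant per library gave whole reads for 100% of values (tolerance 0.001), and these were recovered. The test was limma 3.58.1 (trend) on log2(normalized count + 1), a scale that understates changes of low genes, in 1 fit of 8 libraries; it covered the 16478 genes that reached 10 normalized counts in 2 or more libraries. The code was run on simulated counts with known changes. Alternatives were edgeR 4.0.16 (quasi-likelihood, TMM) and DESeq2 1.42.0 on the recovered reads, other filters and pseudocounts, TMM rescaling, a robust fit, only the 2 groups compared, a replicate block, a fold threshold and each library left out. Ratios were tested in SciPy 1.17.1. P-values measure the spread between single animals.

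Members and lists were chosen with earlier results of these data known. Values were given for members called in PEG vs NC (the first 15 in each direction by adjusted p), up to 10 called only against Unop, and their ligand, receptor or inhibitor partners; Il16, Il7 and the genes of the signalling lists were singled out after their values were seen. Symbols were taken from the deposited tables, and RefSeq (GRCr8) gave gene order and promoters only, since its build differs from that of the counts. Some genes of the signalling and marker lists are not reported here and were left out of their counts and sums. Reads of near-identical or overlapping genes may be split by the counting.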

Additional observations from a re-analysis of the deposited data

How the results depend on the processing

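Of the 34 members called between PEG-fused and NC PNAs, 24 were called under every alternative that gave a value other than the fold threshold, 10 lost the call under at least 1 of these, and none changed direction. The fold threshold kept 24 lower and 3 higher members. Lower members numbered 24 to 33 with 1 library left out and 24 to 31 otherwise, with 31 from edgeR and 31 from DESeq2 on the recovered reads. Higher members fell from 5 to 3 without a filter, with a pseudocount of 8, with only the 2 groups compared and with a fold threshold, and were 1 to 4 with 1 library left out. Higher receptor chains fell from 4 to 2 without a filter, with only the 2 groups compared and with a fold threshold, and were 1 to 3 with 1 library left out. The only higher ligand, Il25, was not called (0 ligands) by DESeq2, with a filter of 50 counts, which it does not pass, or with a pseudocount of 8, and higher ligands were 0 to 2 with 1 library left out. A fold threshold, which removes smaller changes by construction, left 14 of 30 lower and 0 of 3 higher signalling genes, and the higher ones were 1 to 3 with 1 library left out. For the other losses the cause was not tested.

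Differences near 0 changed sign with single libraries left out: Il33 ran from -0.11 to 0.21, Il6st from -0.10 to 0.14, Il34 from -0.019 to 0.17, Il1rap from -0.061 to 0.20 and Il1r2 from -0.12 to 0.15. The log2 ratio of Il1a to Il1rn ran from -0.066 to 0.73 and that of Il1b to Il1rn from -2.14 to -1.08.

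Same-numbered PEG-fused and NC PNAs did not pair: the correlations of their deviations from the group means were 0.11, 0.11 and -0.050, and not every library correlated best with its own number. A replicate block gave 26 lower and 4 higher members and lost 4 of the 34 calls, and ratios kept their means.

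With 2 Unop nerves, comparisons with unoperated nerve rest on the spread shared by the groups. Folds of genes with few reads in a group, such as Il2, Il17a, Il25 and Il27, carry a large counting error and depend on the pseudocount.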
